A study of Mus musculus with 4 samples.

Results

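The genes examined here encode the dynein motors of the axoneme with the factors that assemble them, the radial spoke proteins and the tektins. Members were all rows of the deposited expression table whose symbol begins with Dnah, Dnai, Dnaic, Dnal, Dnali, Dnaaf, Rsph or Tekt followed by a digit, which gave 32 of 24420 symbols: 11 heavy chains, 2 intermediate chains, 3 light chains, 4 assembly factors, 7 radial spoke proteins and 5 tektins. RNA of freshly isolated testis was sequenced from FVB mice, as 2 libraries of genotype lrrc8a MUT and 2 libraries of genotype WT. Both genotypes share the strain, the Trizol extraction, the DNase I treatment and the TruSeq stranded mRNA library kit. The labels name germ cells as the cell type but describe no step that separates cells. They state neither the kind of mutation nor the age of the mice. They also do not say that each library is a separate animal, so p-values cover only the spread among the 4 libraries, which may be technical. The protein LRRC8A is part of the anion channel that opens when cells swell, and the study asks how deficient activity of this channel relates to male infertility.

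The axoneme is the microtubule core of a motile cilium or sperm tail, built as a ring of doublet microtubules around a central pair. Dynein arms on each doublet walk along its neighbour, radial spokes pass signals between the central pair and the arms, and tektins are filaments inside the doublet wall. In the testis these transcripts accumulate from meiosis into the spermatid stages, when the sperm tail is built, and several heavy chains and spoke proteins have one version typical of sperm and another typical of cilia. Many genes of motile cilia carry, near their start, the X-box bound by dimers of RFX transcription factors.

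RefSeq promoters on build GRCm38.p6, each from 250 bases before to 50 bases after the annotated start, were found for 29 of the 32 genes, and their letters were searched on both strands. The X-box half-site GTTGCC lay in the promoters of 10 of the 29 genes (34.5%), against 14.1% of the 27025 genes in the table. In the last 150 bases of the window the shares were 8 of 29 (27.6%) against 8.03%. A palindrome was also searched, GTTGCNNNGCAAC, made of facing half-sites that each lack their last letter. It lay in 7 of the 29 (24.1%), against 68 of all 27025 genes (0.252%) and 0.412% of the genes with testis expression high enough to be tested. The palindrome was chosen after the members' promoters had been read, so its share is a description with no test. The forkhead motif GTAAACA was found in 2 of the 29 genes, Dnah17 and Tekt3 (6.90% against 4.05%). Of the cAMP response element letters bound by CREM, TGACGTCA was found in 1 gene (3.45% against 2.03%), and TGACGTAA in 0 of 29 (0.581% of all genes). Over the tested genes the shares were 15.8% for GTTGCC (9.33% in the last 150 bases), 3.14% for GTAAACA, 3.37% for TGACGTCA and 0.910% for TGACGTAA. These matches do not show that a factor is bound. The palindromes of 6 genes are shown because they recur close to the start in genes of 4 of the 6 families. Capitals mark the palindrome, and the strand is that of the gene.
Dnah7a, chr1:53706821-53706849, minus strand: gccagtttGTTGCTTAGCAACgaatcgac
Dnah7b, chr1:46066821-46066849, plus strand: gccagtttGTTGCTTAGCAACgaatcgac
Dnaic2, chr11:114727378-114727406, plus strand: cggccaggGTTGCTAGGCAACtggtaaac
Rsph3b, chr17:6948327-6948355, minus strand: aacctcggGTTGCTCGGCAACcgatgggg
Tekt2, chr4:126325697-126325725, minus strand: agggggcgGTTGCTCGGCAACcagagccg
Tekt4, chr17:25471546-25471574, plus strand: gtgaccctGTTGCTCAGCAACaggaggca

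In these 6 genes the centre of the palindrome lay between 51 bases before the start (Dnah7a) and 16 bases after it (Rsph3b), and in the other 4 genes between 30 and 18 bases before it. These distances are from the nearest RefSeq start. From another start of Tekt2 the half-site in the palindrome lay at -64, and the stretches of Dnah7b and Rsph3b overlap 2 annotated exons each. In Dnaic2, Rsph3b and Tekt2 the palindrome also holds a match to the half-site. The stretch is the same in the copies Dnah7a and Dnah7b, whose whole promoter windows were 67.7% identical over the aligned columns. Rsph3b has the palindrome while its copy Rsph3a has neither it nor a half-site in the window. These promoters were 48.5% identical, with 89 mismatches and 88 gap columns among 344. The Rsph3b window, up to base 6948606, lies inside its GENCODE gene, which runs to 6948682 on the minus strand. The windows of this pair may thus not be matching regions.

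**Figure D1:**
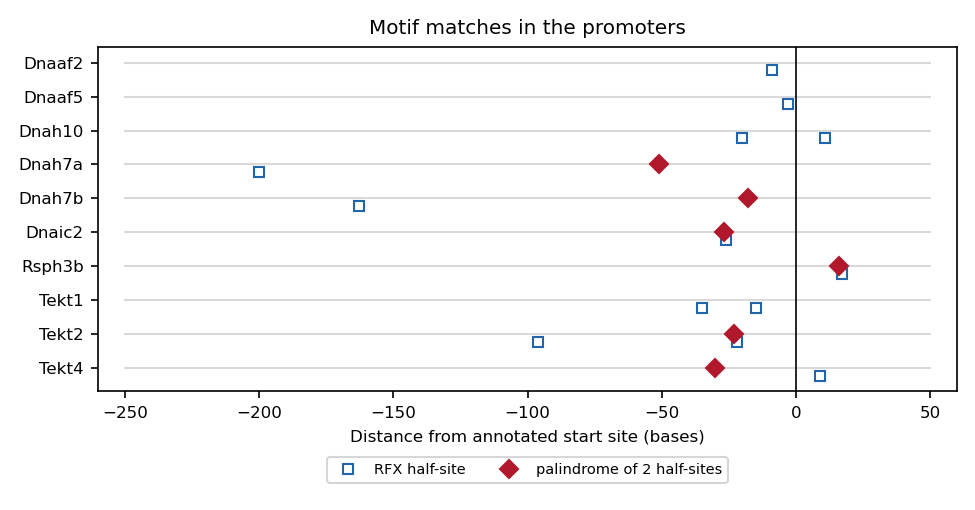
Matches to the X-box half-site (open squares) and to the palindrome of facing half-sites (filled diamonds) in the RefSeq promoters of 10 genes with either, by distance in bases from the nearest annotated RefSeq start site. In 5 of the 6 genes plotted with a palindrome its centre lies before that start, within 51 bases of it.

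All 32 genes were detected in every library. Values are CPM, read counts divided by the library size as the authors scaled it. Depth was 48409785 reads in MUT 1 and 40426400 in MUT 2, against 68192776 reads in WT 1 and 50162558 in WT 2. A count of 3 reads, the lowest taken as detectable, corresponds to 0.0445 to 0.0733 CPM and covers counting error only. Lrrc8a itself was at 13.5 and 15.9 CPM in MUT libraries and at 18.2 and 17.1 CPM in WT libraries (limma adjusted p = 0.218). The tissue label was checked against marker genes: spermatocyte markers summed to 8833 and 8904 CPM in MUT libraries and to 9338 and 9327 CPM in WT libraries, and of 16 markers of the epididymis and efferent ducts, Crisp4 and Lcn10 were at 0 in all libraries while 5 passed the expression filter. Those 5 were Pax2, Rnase10, Ccno, Sox17 and Ccdc67, and Ccdc67 alone, at 274 to 292 CPM, made up most of the list's 314 to 332 CPM. In bulk tissue, fewer cells of a type and less RNA per cell cannot be told apart. Levels of different genes are compared as CPM per kb of the longest annotated transcript.

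The set as a whole took 0.917% and 0.909% of the CPM in MUT libraries and 0.923% and 0.894% in WT libraries, so the groups overlapped. Of the 31 genes tested, 0 passed the test for a genotype difference (limma on log2(CPM + 0.5), two-sided, Benjamini-Hochberg adjusted p under 0.05 over 15364 genes), where 0.749% of all tested genes did, 0.482% higher and 0.267% lower in MUT. edgeR and DESeq2 on the recovered reads also called 0 of the 31, with 0.755% and 1.18% of all genes called. At an unadjusted p under 0.05 there were 1 higher gene, Dnaaf5, and 3 lower genes, Dnaic2, Tekt4 and Tekt5, in MUT, against 7.74% higher and 6.98% lower over all genes, together 14.7%, so the members' shares are near or below the background. The median log2 fold change, MUT over WT, was -0.0079 for the 31 genes and -0.0016 for all tested genes, with 13 members above 0 and 18 below. Fold changes ranged from -0.22 (Dnaic2) to 0.21 (Dnaaf5) on the log2 scale.

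The intervals of the fold changes cover only the spread among the 4 libraries, and not the choice of processing. For Dnah8 the log2 fold change with trends on GC content and transcript length removed was -0.18. That lay outside its own 95% interval of -0.17 to 0.082. For all 31 genes the 95% interval of the fold change lay within 1.5-fold either way, as for 93.1% of all tested genes, and for 21 it lay within 1.2-fold, against 36.4%. Most members are abundant, 22 of the 32 at 100 CPM or more, and the median standard error of their log2 fold change was 0.0677, against 0.0948 over all genes. In 24 of the 31 genes the libraries of one genotype differed from each other by more than the genotype means did, against 67.3% of all genes. The WT libraries were the more different pair in 23 of the 31 genes, against 53.7% of all genes, and 15 of the 32 members were highest in WT 1. MUT libraries lay wholly above WT libraries in 3 genes and wholly below in 9, against 23.0% and 22.6% of all tested genes and 45.6% in both directions.

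**Figure D2:**
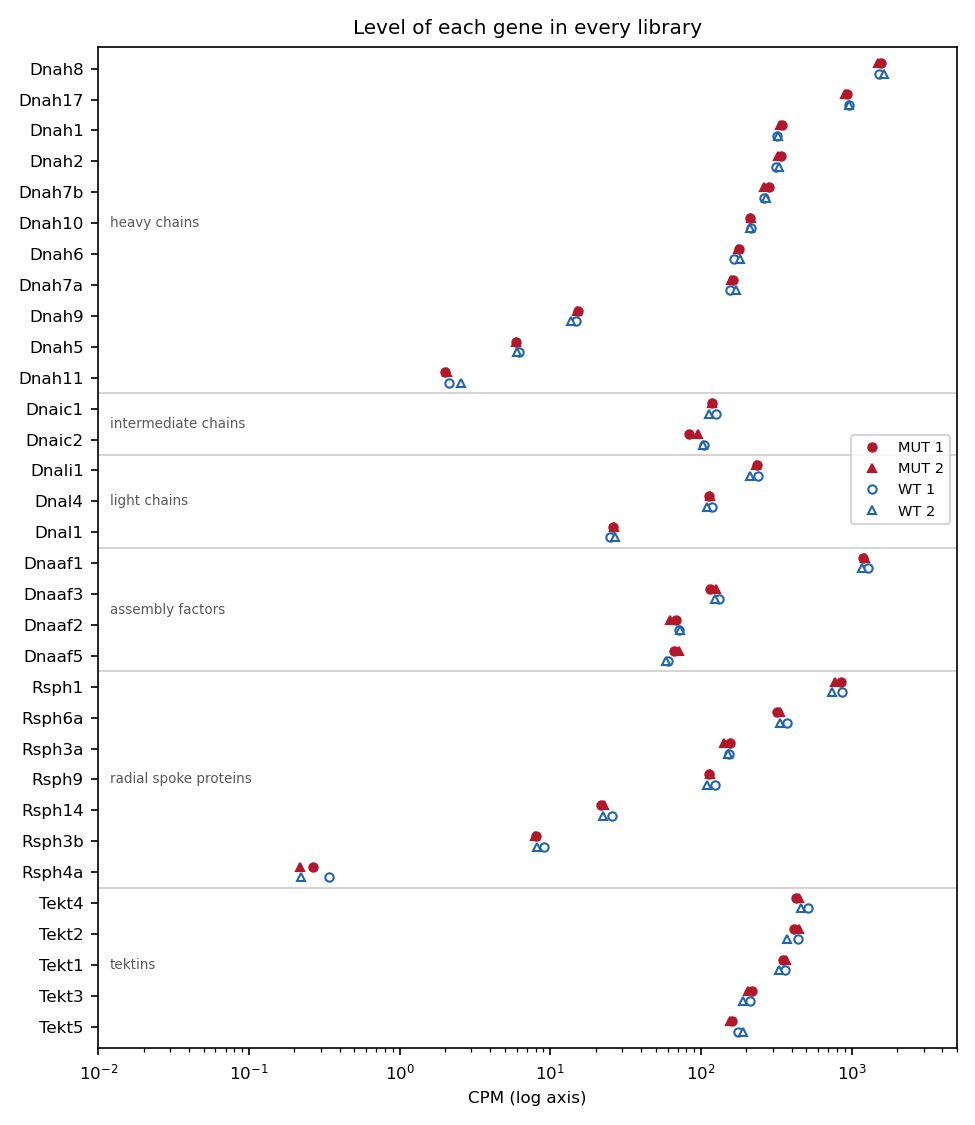
CPM of each of the 32 genes in each library on a log axis, by family, with MUT libraries (filled red) drawn just above WT libraries (open blue). The libraries of a gene lie close together, while genes within a family span up to 3 orders of magnitude, as in the radial spoke proteins.

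Among the heavy chains, the motor subunits themselves, the outer arm chains known from sperm were far above their relatives known from cilia. Dnah8, the outer arm gamma-type chain of sperm, was at 1571 and 1500 CPM in MUT libraries and at 1517 and 1651 CPM in WT libraries. The groups overlapped, with a log2 fold change of -0.044 (SE 0.0600, limma adjusted p = 0.787). Its relative Dnah5, which builds ciliary outer arms, was at 5.95 and 5.96 CPM in MUT libraries and at 6.16 and 5.99 CPM in WT libraries. Per kb, Dnah8 exceeded Dnah5 by 248 and 236 times in MUT libraries and by 231 and 258 times in WT libraries, so the ratio overlapped between genotypes at a mean of 243 ± 12.3 (SD, n = 4 libraries). With the summed length of merged exons as the length it was 151, since the annotation of Dnah8 holds many alternative exons.

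Dnah17, the outer arm beta-type chain of sperm, showed the same order. It was at 929.5 and 898.8 CPM in MUT libraries and at 963.3 and 954.8 CPM in WT libraries. The ciliary beta-type chain Dnah9 was at 15.38 and 15.03 CPM in MUT libraries and at 14.8 and 13.8 CPM in WT libraries. Dnah11, the other ciliary beta-type chain, was the lowest heavy chain, at 2.01 and 2.05 CPM in MUT libraries and at 2.12 and 2.57 CPM in WT libraries. For these 3 genes the groups did not overlap, Dnah9 being higher and Dnah17 and Dnah11 lower in MUT. None passed the test (limma adjusted p = 0.609 for Dnah17, 0.704 for Dnah9 and 0.664 for Dnah11). Of the 11 heavy chains 2 lay wholly higher and 3, Dnah5 among them, wholly lower in MUT. Over all tested genes these shares were 23.0% and 22.6%, so such separation is common. The log2 fold change of Dnah11 was -0.17 (SE 0.155), and -0.28 without WT 1 or -0.051 without WT 2. Per kb, Dnah17 exceeded Dnah9 by 55.7 and 55.1 times in MUT libraries and by 60.2 and 64.0 times in WT libraries. It exceeded Dnah11 by 435 and 412 times in MUT libraries and by 427 and 349 times in WT libraries. The ratio to Dnah9 was lower in both MUT libraries and that to Dnah11 overlapped between genotypes. Single ratios carry no test, since the smallest two-sided p of an exact permutation test of 2 against 2 libraries is 0.33.

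**Figure D3:**
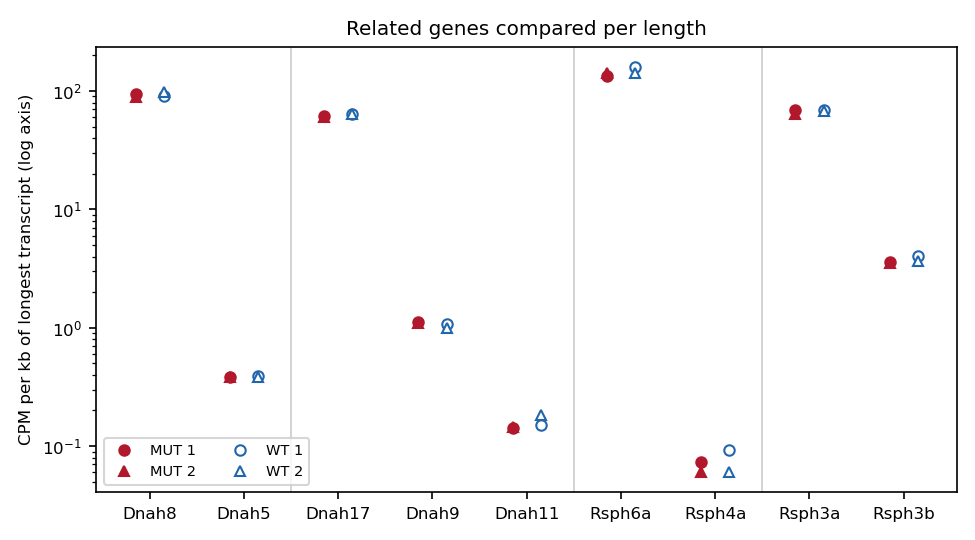
CPM per kb of the longest transcript, on a log axis, for related dynein and radial spoke genes in each library, MUT (filled red) left of WT (open blue). Within each pair the gene known from sperm or the more abundant copy lies far above its relative in every library, by 243 times for Dnah8 over Dnah5 and 18.3 times for Rsph3a over Rsph3b on average.

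The inner arm heavy chains were intermediate in level. Dnah1, whose loss in men gives short or irregular sperm tails, had the smallest p of the heavy chains, at 344.8 and 334.5 CPM in MUT libraries and at 320.2 and 325.2 CPM in WT libraries. Both MUT libraries were above both WT libraries, but the log2 fold change was 0.074 (SE 0.0599), which missed the threshold (limma adjusted p = 0.605) and became -0.0087 once trends on GC content and transcript length were removed from every library. Dnah2 and Dnah10, the heavy chains of the double-headed inner arm, were at 339.3 and 323.7 CPM and at 212.2 and 214.0 CPM in MUT libraries, against 314.5 and 330.3 CPM and 213.4 and 210.0 CPM in WT libraries. The groups overlapped for both. Among the single-headed inner arm chains, Dnah6 was at 178.1 and 175.5 CPM in MUT libraries and at 165.6 and 181.2 CPM in WT libraries. Dnah7a was at 163.2 and 157.9 CPM in MUT libraries and at 155.2 and 169.5 CPM in WT libraries. Its copy Dnah7b, on the same chromosome, was at 284.5 and 261.3 CPM in MUT libraries and at 261.2 and 269.5 CPM in WT libraries. The groups overlapped for these 3 genes too. Of all 50-base words of the Dnah7a transcript, 30.6% also occur in Dnah7b, and 38.5% of those of Dnah7b occur in Dnah7c, so reads could have been split between the copies.

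Per kb, the order of the heavy chains was Dnah8 (93.5), Dnah17 (62.6), Dnah1 (25.7), Dnah2 (23.9), Dnah7b (21.9), Dnah10 (15.1), Dnah6 (13.8), Dnah7a (13.2), Dnah9 (1.07), Dnah5 (0.385) and Dnah11 (0.156 CPM per kb). On this length the ranges over libraries overlapped for Dnah2 with Dnah7b and for Dnah6 with Dnah7a, and for no other neighbours. The order depends on the length: per kb of merged exons Dnah8 and Dnah17 were level, both at 58.1. Dnah7b then fell to 13.5, beside Dnah6 (13.2), Dnah10 (13.2) and Dnah7a (12.6 CPM per kb). The median log2 fold change of the heavy chains was 0.0095, with 6 genes above 0 and 5 below, but with the trends on GC content and length removed it was -0.088 with 11 of 11 below 0. The median of all tested genes was then -0.0045. The heavy chain transcripts are all long, from 12245 to 16685 bases. The fitted length trend can thus move them together, and the 11 signs are not separate results. Without that correction the heavy chain median was -0.022 without MUT 1 and -0.0084 without WT 1. It was 0.0091 without MUT 2 and 0.041 without WT 2, so it fell on both sides of 0.

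The intermediate chains anchor the outer arm motor, and of these Dnaic2 had the smaller p. Dnaic1 was at 118.7 and 118.2 CPM in MUT libraries and at 125.7 and 112.6 CPM in WT libraries. The WT libraries enclosed both MUT libraries, and the log2 fold change was -0.0067 (SE 0.0701, limma adjusted p = 0.980). Dnaic2 was at 83.3 and 96.1 CPM in MUT libraries and at 104.8 and 103.4 CPM in WT libraries. Both MUT libraries were below both WT libraries, MUT 1 the more so, and the log2 fold change was -0.22 (SE 0.0748, 95% interval -0.37 to -0.060), short of the threshold (limma adjusted p = 0.181). It was -0.11 without MUT 1 and -0.32 without MUT 2. On GRCm38 the protein-coding gene Dnaic2 spans chr11:114727408-114757889 on the plus strand, with no other annotated gene overlapping it.

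The light chains did not differ beyond their spread. Dnali1, the light intermediate chain of the inner arms, was at 235.6 and 231.0 CPM in MUT libraries and at 237.6 and 210.3 CPM in WT libraries. Dnal4, an outer arm light chain, was at 112.2 and 114.4 CPM in MUT libraries and at 117.9 and 109.4 CPM in WT libraries. Dnal1, the light chain bound to the gamma-type motor, was at 26.2 and 26.4 CPM in MUT libraries and at 24.8 and 26.8 CPM in WT libraries. In all of these the MUT libraries lay between the WT libraries, with log2 fold changes of 0.061 (SE 0.0677) for Dnali1, -0.0035 for Dnal4 and 0.030 (SE 0.0846) for Dnal1. The limma adjusted p was 0.722 for Dnali1 and 0.910 for Dnal1.

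The assembly factors fold and join dynein arms in the cytoplasm before their transport into the tail. Dnaaf1, the most abundant, was at 1198 and 1227 CPM in MUT libraries and at 1277 and 1164 CPM in WT libraries, so the WT libraries enclosed the MUT libraries (log2 fold change -0.0079, SE 0.0603, limma adjusted p = 0.969). Dnaaf3 was at 114.6 and 126.1 CPM in MUT libraries and at 132.4 and 124.6 CPM in WT libraries, with overlap. Dnaaf2 was at 68.2 and 62.3 CPM in MUT libraries and at 71.2 and 73.0 CPM in WT libraries, lower in both MUT libraries (log2 fold change -0.14, limma adjusted p = 0.373). It shares 21.2% of its 50-base words with the overlapping gene Gm49383 on its own strand, so its count is uncertain. Dnaaf5, known to act on both outer and inner arms, was the member with the highest fold change. It was at 66.0 and 71.9 CPM in MUT libraries and at 60.04 and 58.55 CPM in WT libraries. Both MUT libraries were above both WT libraries, but with a log2 fold change of 0.21 (SE 0.0737, 95% interval 0.060 to 0.37) the gene missed the threshold (limma adjusted p = 0.177). With the trends on GC content and length removed it was 0.28 (limma adjusted p = 0.0804). With the replicate number also in that fit the limma adjusted p was 0.164. After quantile normalization the log2 fold change was 0.22 (limma adjusted p = 0.216). It was 0.28 without MUT 1, the MUT library nearer to WT, so its size depends on single libraries. Dnaaf5 spans chr5:139150223-139186510 on the plus strand and overlaps Gm15672 on the other strand. The reads of these genes cannot be told apart if the counting ignored strand. This limit is not particular to Dnaaf5, as 22 of the 32 members share ground with another annotated gene on either strand.

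The radial spoke proteins showed the widest range of levels. Rsph1, of the spoke head, was the most abundant of all 32 genes per kb, at 677 CPM per kb. It was at 847.2 and 770.6 CPM in MUT libraries and at 863.4 and 745.3 CPM in WT libraries, so the groups overlapped (log2 fold change 0.010, SE 0.0702, limma adjusted p = 0.964). Rsph6a, the spoke head protein known from sperm, was at 318.5 and 333.4 CPM in MUT libraries and at 374.1 and 335.7 CPM in WT libraries. Both MUT libraries were below both WT libraries, by little between MUT 2 and WT 2, and the log2 fold change was -0.12 (SE 0.0655, limma adjusted p = 0.407). It was -0.043 without WT 1, -0.20 without WT 2 and -0.034 with the GC and length trends removed. Its relative Rsph4a, the ciliary spoke head protein, was the lowest of all members and failed the filter of 1 CPM in at least 2 libraries. It had 13 and 9 reads in MUT libraries (0.2665 and 0.2199 CPM) and 23 and 11 reads in WT libraries (0.341 and 0.221 CPM), with overlap. Per kb, Rsph6a exceeded Rsph4a by 1853 and 2351 times in MUT libraries and by 1701 and 2353 times in WT libraries, a ratio limited by these few reads.

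Of the spoke stalk pair, Rsph3a was at 154.8 and 142.3 CPM in MUT libraries and at 153.2 and 151.0 CPM in WT libraries. Its copy Rsph3b was at 8.10 and 7.89 CPM in MUT libraries and at 9.06 and 8.16 CPM in WT libraries. Rsph3a exceeded Rsph3b by 18.3 ± 0.945 times per kb (SD, n = 4 libraries). The copies share 74.0% of the 50-base words of Rsph3a, so reads of one may have been assigned to the other or left uncounted. Rsph9, of the spoke head, was at 113.2 and 114.8 CPM in MUT libraries and at 123.4 and 109.6 CPM in WT libraries, with overlap. Rsph14 was at 21.8 and 22.6 CPM in MUT libraries and at 25.6 and 22.2 CPM in WT libraries, with overlap. Of the 6 tested radial spoke genes, 5 had a log2 fold change below 0, where 50.4% of all tested genes did, and the median of the 6 was -0.067. It was -0.14 without WT 2 and -0.014 without WT 1, which held the highest value of 6 of the 7 spoke genes.

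**Figure D4:**
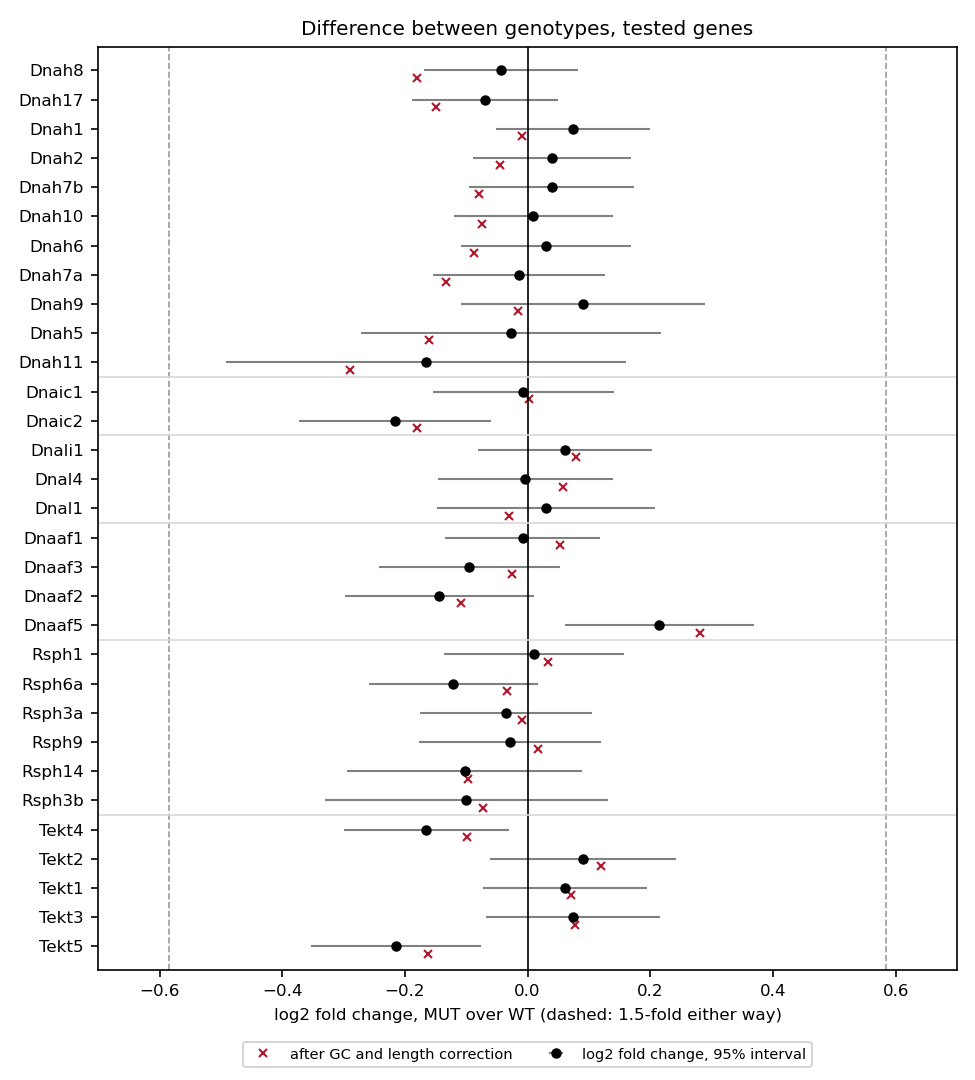
Log2 fold change, MUT over WT, of the 31 tested genes with its 95% interval (black), and the value with the GC and length trends removed (red crosses). Dashed lines mark 1.5-fold either way. Every interval lies inside them, and those of Dnaic2, Dnaaf5, Tekt4 and Tekt5 leave out 0 before adjustment over all genes.

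The tektins had the highest median level per kb of the 6 families, at 244 CPM per kb against 15.1 CPM per kb for the heavy chains. Their order per kb was Tekt4 (301), Tekt2 (272), Tekt1 (244), Tekt3 (118) and Tekt5 (94.4 CPM per kb), with overlapping library ranges for Tekt4 with Tekt2 and for Tekt2 with Tekt1. Tekt5, a protein-coding gene at chr16:10357948-10395490 on the minus strand, had the smallest p of all members. It was at 159.6 and 155.3 CPM in MUT libraries and at 175.4 and 190.4 CPM in WT libraries. Both MUT libraries were below both WT libraries, but with a log2 fold change of -0.21 (SE 0.0660, 95% interval -0.35 to -0.076) the gene missed the threshold (limma adjusted p = 0.135). Without WT 1 it was -0.27 and Tekt5 passed (adjusted p = 0.0466), with 1.82% of all tested genes called in that fit. There only the MUT pair gives the spread, and the lone WT library is assumed to vary like it. The library left out is also the WT library nearer to MUT. With all libraries and the GC and length trends removed, the log2 fold change of Tekt5 was -0.16.

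Tekt4, at chr17:25454615-25476602 on the plus strand, is a tektin whose loss in mice weakens sperm swimming. It was at 425.7 and 447.0 CPM in MUT libraries and at 515.1 and 464.4 CPM in WT libraries. Both MUT libraries were below both WT libraries, and with a log2 fold change of -0.17 (SE 0.0642, 95% interval -0.30 to -0.030) the gene missed the threshold (limma adjusted p = 0.231). It was -0.090 without WT 1, -0.24 without WT 2 and -0.10 with the GC and length trends removed. The other tektins had fold changes above 0 and overlapped between genotypes. Tekt1 was at 351.6 and 367.9 CPM in MUT libraries and at 360.2 and 330.0 CPM in WT libraries. Tekt2, whose loss makes male mice infertile, was at 414.6 and 449.3 CPM in MUT libraries and at 439.4 and 374.3 CPM in WT libraries. Tekt3 was at 218.2 and 206.2 CPM in MUT libraries and at 212.2 and 191.4 CPM in WT libraries. Their log2 fold changes were 0.061, 0.090 and 0.074. The tektin median of 0.061, with 2 of 5 genes below 0, was -0.026 with 5 of 5 below 0 without WT 2.

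**Figure D5:**
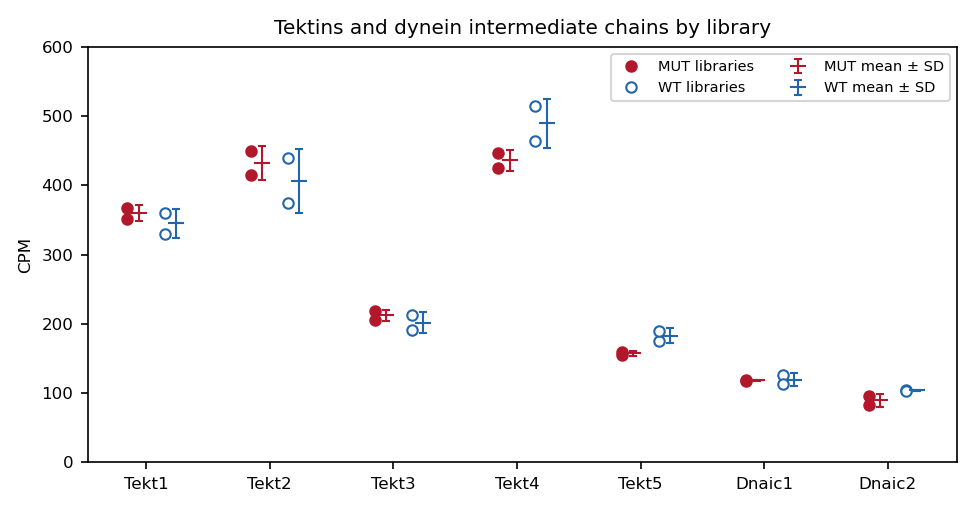
CPM of the tektins and the dynein intermediate chains, as single libraries (dots) and as mean with SD over 2 libraries (bars), MUT (filled red) left of WT (open blue). Tekt4, Tekt5 and Dnaic2 have both MUT libraries below both WT libraries, and the other 4 genes overlap.

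The stretches before the starts of Tekt4, Tekt5 and Dnaic2, the 3 genes with the smallest p among those lower in MUT, are shown as the longest run without an annotated exon in the 250 bases before the RefSeq start, on GRCm38.p6 and the strand of the gene, with capitals for the palindrome. The run of Tekt4 lies inside the longer gene model of GENCODE, between its exons. Tekt5 has no match to any motif searched. Of the 6 genes whose palindrome is shown, 2 had log2 fold changes above 0 and 4 below, with Tekt2 at 0.090 and Tekt4 at -0.17.
Tekt4, chr17:25471340-25471589, plus strand: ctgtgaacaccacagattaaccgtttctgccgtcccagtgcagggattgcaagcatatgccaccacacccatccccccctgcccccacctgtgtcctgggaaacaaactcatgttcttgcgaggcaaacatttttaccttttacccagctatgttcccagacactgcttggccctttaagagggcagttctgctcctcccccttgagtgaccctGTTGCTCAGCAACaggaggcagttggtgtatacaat
Tekt5, chr16:10395491-10395705, minus strand: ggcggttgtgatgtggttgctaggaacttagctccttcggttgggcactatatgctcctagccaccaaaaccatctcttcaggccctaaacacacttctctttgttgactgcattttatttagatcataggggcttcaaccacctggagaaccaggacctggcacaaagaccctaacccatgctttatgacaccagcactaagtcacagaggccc
Dnaic2, chr11:114727169-114727407, plus strand: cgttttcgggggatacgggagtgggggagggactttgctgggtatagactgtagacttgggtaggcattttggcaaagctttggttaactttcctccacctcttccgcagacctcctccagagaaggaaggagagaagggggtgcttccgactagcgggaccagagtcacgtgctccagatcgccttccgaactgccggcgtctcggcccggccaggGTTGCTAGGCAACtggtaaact

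The other genes of the axoneme were read from lists of 111 further symbols, of which 108 were tested and 0 passed, where 0.749% of all tested genes did. Their median log2 fold change was -0.023, with 42 genes above 0 and 66 below. In the list read for the nexin-dynein regulatory complex, which links doublets and controls the arms, 10 of 11 tested genes were below 0, with a median of -0.12. Without WT 1 this was -0.041 with 7 of 11 below 0, and with the GC and length trends removed -0.064 with 9 of 11 below 0. Its Fbxl13 was at 200.2 and 207.5 CPM in MUT libraries and at 229.4 and 245.7 CPM in WT libraries (log2 fold change -0.22, limma adjusted p = 0.113), and it passed without WT 1 (adjusted p = 0.0465), where again only the MUT pair gives the spread. Lrrc49 is in the same list, but its place in the complex was not checked here. It was at 85.6 and 86.4 CPM in MUT libraries and at 99.5 and 102.1 CPM in WT libraries (-0.23, limma adjusted p = 0.117). In both genes MUT libraries lay wholly below WT libraries.

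Cytoplasmic dyneins, which carry cargo along microtubules rather than bend a tail, were on the other side: 13 of 15 tested genes were above 0, with a median of 0.067. This was 0.037 without MUT 1, 0.031 with 5 of 15 below 0 when the GC and length trends were removed, and 0.049 with 6 of 15 below 0 without WT 2. Dynlrb1, a light chain shared by these motors, was at 9.96 and 13.3 CPM in MUT libraries and at 9.46 and 7.62 CPM in WT libraries (log2 fold change 0.42, limma adjusted p = 0.143), and it passed without MUT 1 (adjusted p = 0.00307, with 0.755% of all genes called in that fit). There only the WT pair gives the spread, and the library left out is the MUT library nearer to WT. Tctex1d2 of the same list had a log2 fold change of -0.12.

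The remaining lists had medians between -0.060 and -0.0019. Of the docking and assembly factors with other symbols, Zmynd10 and Pih1d2 had log2 fold changes of -0.16 and -0.19. Of the other radial spoke proteins, Ropn1 and Nme5 had both -0.14. In the central apparatus Hydin had 0.14 and Spag17 0.12, but 10 of its 13 tested genes were below 0, with a median of -0.046. Among the proteins inside the doublet wall Nme7 had -0.21 and Efcab6 -0.14. None passed the test. In the list of transcription regulators Taf7l had 0.20. Ccno, a cyclin placed in that list and also among the efferent duct markers, had -0.24. Rfx2, an RFX factor that acts in spermatids and was named after its values were seen, was at 561.9 and 612.8 CPM in MUT libraries and at 617.1 and 568.4 CPM in WT libraries, with overlap.

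Markers of other cells were read beside these values. Elongating spermatid markers summed to 25389 and 24302 CPM in MUT libraries and to 27393 and 25203 CPM in WT libraries, with overlap. Of these markers 0 of 16 were called and 12 were below 0, with a median log2 fold change of -0.080. At an unadjusted limma p under 0.05, 4 were lower and 0 higher, against 6.98% lower and 7.74% higher over all genes. Leydig cell markers summed to 1223 and 1275 CPM in MUT libraries and to 1055 and 1034 CPM in WT libraries, with 2 of 10 called higher, Cyp17a1 and Prlr. Sertoli cell markers had 1 of 15 called higher (Gja1), spermatogonia 1 of 12 higher (Kit), macrophages 1 of 9 lower (Cd74), and spermatocyte, round spermatid, peritubular myoid and epididymis markers 0 of 14, 14, 7 and 5. Cd74 went against most of its list, where 6 of the 9 were above 0, with a median of 0.030. The macrophage sums overlapped, at 109 and 117 CPM in MUT libraries and at 115 and 104 CPM in WT libraries. The part of cell composition in the values of Tekt4, Tekt5, Dnaic2 and Dnaaf5 was not tested.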

How the data were processed

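The authors deposited 1 table of CPM per gene symbol. The submitters' processing notes name TopHat2 2.0.10, HTSeq 0.6.0, edgeR 3.8.6 and mm10, without roles; the strand setting was not given in the sources used here. Every deposited CPM was a whole multiple of the library's smallest value (100% within 0.001 of a whole read), which gave the reads. All 15364 genes with at least 1 CPM in at least 2 libraries were fitted with limma 3.58.1 (log2(CPM + 0.5), mean-variance trend, R 4.3.3), 2 MUT against 2 WT libraries, with Benjamini-Hochberg adjustment over all of them. Fold changes on this scale understate those of weakly expressed genes. As alternatives the reads were tested with DESeq2 1.42.0 and with edgeR 4.0.16 (quasi-likelihood), beside other pseudocounts, filters, scalings, variance settings, a GC and length correction, a replicate block and each library left out. Scripts were tested on simulated data.

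Lengths and positions are from GENCODE vM21 (GRCm38) and promoters from RefSeq (GRCm38.p6). Copies were compared by shared 50-base words of their longest transcripts. Promoter copies were aligned with Biopython 1.88. Protein identity was not computed here. The promoter sequence of 1 member is not reported here. The members and gene lists were chosen with earlier results of these data known. Values per library were given for all members, and folds with tests for the highest, the lowest and the smallest p in each family, for members with an unadjusted p under 0.05, and for the 2 smallest p of each other list.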

Additional observations from a re-analysis of the deposited data

How the results depend on the processing

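The count of members called stayed at 0 under every alternative except without WT replicate 1, where it was 1 (Tekt5), so that leaving out single libraries gave 0 to 1. The other axonemal lists also gave 0 to 1, with Dynlrb1 called without MUT 1 and Fbxl13 without WT 1. Over all genes 115 calls became 11 with no filter on low values, 53 after quantile normalization, 7 without a variance trend, 69 after GC and length correction, 23 with that correction and a replicate block, and 116 to 280 with single libraries left out. Samples that share a number did not deviate together (r = -0.13), so the numbers were not taken as pairs. The replicate block alone gave 0 member calls and 88 over all genes. The crossed pairing, chosen after seeing the data, gave 0 and 235. The members' median of -0.0079 was -0.045 without WT replicate 2, and -0.045 to -0.0033 over the libraries left out. With merged exon lengths the ratio of Dnah8 to Dnah5 was 151 and that of Dnah17 to Dnah9 63.0.

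Among the named genes, fold changes near 0 changed sign in 21 cases. After quantile normalization Dnah8 was at 0.051, Dnaic1 at 0.018 and Dnaaf1 at 0.065. With reads scaled to their total, which moved the median of all genes to 0.026, Dnaic1 was at 0.022 and Dnaaf1 at 0.021. With the GC and length correction, with or without the block, Dnah1 was at -0.0087, Dnaic1 at 0.0020, Dnal1 at -0.031 and Dnaaf1 at 0.053. With single libraries left out, Dnah8 ranged between -0.10 and 0.017, Dnaic1 between -0.086 and 0.072, Dnali1 between -0.027 and 0.15, Dnal1 between -0.026 and 0.085, Dnaaf1 between -0.075 and 0.059, and Rsph1 between -0.096 and 0.12. The causes were not tested. Depth limits Rsph4a, at 9 to 23 reads per library.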
